A study of Rattus norvegicus with 3 samples.

Results

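The genes described here encode the ligands and receptors of axon guidance, and their transcripts were measured by RNA sequencing of motor cortex from male rats of the Sprague-Dawley strain. They were chosen by symbol alone: semaphorins, plexins, neuropilins, ephrins, Eph receptors, Slits, Robo receptors, netrins, Dcc and symbols that start with Unc5. The rule took 71 of the 30957 genes in the files, each on 1 row. All 3 rats, numbered 19, 35 and 70, had undergone cerebral ischemia and reperfusion, in which blood flow to the brain is stopped and then restored. Each carries the label 8 weeks, which could be an age or a time after the operation, and the position of the tissue relative to the injury is not stated. The rats form 1 group with no control analysed here, so no value below can be read as a change caused by ischemia. No test between groups was possible, and with 3 animals no gene's spread can be tested either. Values are fragments per kilobase of gene per 1000000 fragments (FPKM), given in the order rat 19, rat 35 and rat 70.

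Guidance molecules steer growing axons by attraction or repulsion, and in the adult brain many of them also act on synapses, glia and vessels. Secreted class 3 semaphorins mostly bind neuropilins, which signal through A plexins, whereas most other semaphorins are membrane proteins that bind plexins directly. Ephrins are held in the membrane by a lipid anchor (A type) or a transmembrane stretch (B type) and bind Eph receptor tyrosine kinases on neighbouring cells. Slits repel axons through Robo receptors, and netrins attract through Dcc and repel through Unc5 receptors. After stroke, this group is known mainly for limiting or permitting axon sprouting near the lesion.

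The sequences before the start of 4 genes are shown because their values carry the contrasts below: the neighbours Efna1 and Efna3, of which the first was highest and the second lowest in rat 35, Unc5a, which was lowest in rat 35, and Ephb4, which was highest there. Each is the 250 bases before the start that RefSeq gives on build GRCr8, 5′ to 3′ on the gene's strand, which is the minus strand in all 4. Capitals mark the motifs that a search of both strands found, the GC box (GGGCGG, or CCGCCC on the other strand, overlapping copies included) and the CCAAT box (CCAAT).
Efna1, chr2:176986822-176987071: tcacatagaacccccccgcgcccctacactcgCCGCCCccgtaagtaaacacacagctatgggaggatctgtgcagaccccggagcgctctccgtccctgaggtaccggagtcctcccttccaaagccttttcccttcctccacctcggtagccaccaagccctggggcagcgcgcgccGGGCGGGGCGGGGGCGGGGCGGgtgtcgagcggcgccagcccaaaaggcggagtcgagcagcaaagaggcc
Efna3, chr2:177035839-177036088: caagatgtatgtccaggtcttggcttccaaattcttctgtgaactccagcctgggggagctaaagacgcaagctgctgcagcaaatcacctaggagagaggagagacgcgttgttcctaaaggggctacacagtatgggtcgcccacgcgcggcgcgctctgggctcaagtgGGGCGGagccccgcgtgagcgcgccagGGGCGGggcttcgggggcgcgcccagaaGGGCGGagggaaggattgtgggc
Unc5a, chr17:9675664-9675913: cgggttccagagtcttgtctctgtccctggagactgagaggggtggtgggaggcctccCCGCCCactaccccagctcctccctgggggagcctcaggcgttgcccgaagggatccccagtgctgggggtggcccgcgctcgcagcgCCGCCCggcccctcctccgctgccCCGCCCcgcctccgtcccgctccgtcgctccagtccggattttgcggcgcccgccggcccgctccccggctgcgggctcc
Ephb4, chr12:24988389-24988638: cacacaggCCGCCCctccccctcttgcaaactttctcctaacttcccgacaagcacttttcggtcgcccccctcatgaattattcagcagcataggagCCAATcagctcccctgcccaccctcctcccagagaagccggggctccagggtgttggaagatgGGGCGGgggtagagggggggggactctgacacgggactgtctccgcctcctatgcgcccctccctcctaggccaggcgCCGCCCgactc

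GC boxes stood in all 4 windows, 5 in Efna1 and 3 in each of the others, and a CCAAT box in Ephb4 alone. RefSeq starts were found for 56 members. Of these, 32 (57.1%) held a GC box, against 30.5% of 33469 promoter windows of the same length, and 18 (32.1%) a CCAAT box, against 34.0%. No member window held a TATA box (TATAAA), which 12.9% of all windows did. The share with a GC box was 56.5% among the 23 members with a window that were lowest in rat 35 and 55.6% among the 18 that were highest there. The palindromes CRE (TGACGTCA) and E-box (CACGTG) were in 1 and 4 member windows and the AP-1 letters (TGANTCA) in 1, against 1.59%, 5.59% and 6.34% of all windows. Median GC content was 62.4% in member windows and 51.2% in all. A match is a description of letters and not a binding site.

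Rat 35 stood apart from the others before any guidance gene is considered. The 11 pan-neuronal markers summed to 1385 FPKM in rat 19, 68.0 in rat 35 and 2045 in rat 70, and all 11 were lowest in rat 35. The 6 markers of cortical excitatory neurons, which check the tissue label, summed to 775, 48.0 and 1200, all lowest in rat 35. Microglia and macrophage markers summed to 687, 2172 and 526 (9 of 9 highest in rat 35), fibroblast and meningeal markers to 237, 2651 and 215 (5 of 5 with a mean of 1 or more, Col1a2 being listed at 0 in all rats), endothelial markers to 147, 275 and 108 (6 of 6), and mural markers to 207, 381 and 115 (6 of 7). Astrocyte markers summed to 3032, 1001 and 1875, and oligodendrocyte markers to 4318, 3619 and 5675. The 6 inhibitory neuron markers summed to 308, 23.6 and 226, all lowest in rat 35. The 5 markers of oligodendrocyte precursors summed to 156, 266 and 228, but 3 of them were lowest and 2 highest in rat 35. Pdgfra, at 22.9, 152 and 39.1, made up the largest part of their sum in rat 35. In tissue RNA, fewer cells of a type and less RNA per cell cannot be told apart. The part of these differences in the values below was not tested. The low FPKM values step in whole fragments, from which the depth came to about 15550000, 16460000 and 16060000 fragments.

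Of the 71 members, 67 had a mean FPKM of 1 or more, and 53 reached 1 FPKM in every rat; 14 of the 67 were below 1 in some rat. Between the highest and lowest rat, 40 of the 67 (59.7%) were more than 2-fold apart on the scale log2(FPKM + 1), against 42.5% of all 14134 genes at that mean level. The median SD on this scale was 0.65 for the members and 0.45 for all genes (n = 3). Without rat 35, 20 of the 67 (29.9%) were more than 2-fold apart, against 11.0% of all genes.

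The order of the rats also differed from that of all genes. Rat 35 was the lowest for 32 members (47.8%, against 36.5% of all genes) and the highest for 20 (29.9%, against 45.4%). Rat 70 was the lowest for 22 (32.8%, against 44.2%) and the highest for 31 (46.3%, against 29.8%). Rat 19 was the lowest for 13 (19.4%, against 19.3%) and the highest for 16 (23.9%, against 24.8%). The median deviation of the 67 members from their own 3-rat mean was 0.04, -0.15 and 0.20 (log2), where all genes had 0.02, 0.06 and -0.09. The lowest or highest rat changed for Epha2, Nrp2, Robo1, Sema3c, Sema6d and Unc50 when libraries were rescaled to a common sum or by the median of ratios.

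Single members fell into sets by the rat that stood out. In rat 35, 14 members were more than 2-fold below both other rats (20.9%, against 11.9% of all genes) and 2, Ephb4 and Plxnb2, more than 2-fold above both (2.99%, against 10.3%). Rat 70 was more than 2-fold above both others for 9 members (13.4%, against 3.81%) and below both for 4 (5.97%, against 3.86%). Rat 19 was above both for Efnb3, Plxna3 and Plxnb3 (4.48%, against 1.27%) and below both for Robo1 (1.49%, against 0.389%).

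**Figure D1:**
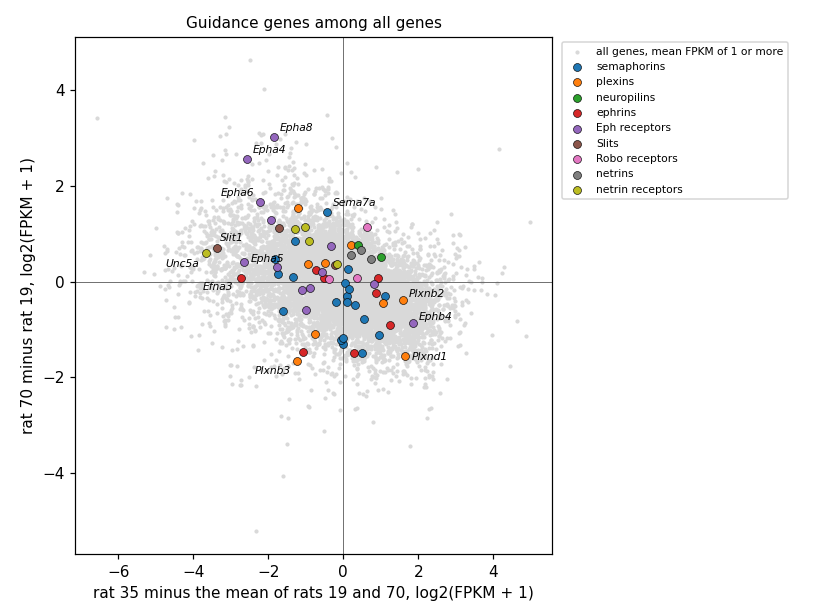
Each point is a gene with a mean FPKM of 1 or more, placed by rat 35 minus the mean of rats 19 and 70 (horizontal) and by rat 70 minus rat 19 (vertical), both in log2(FPKM + 1). Grey points are all 14134 genes and coloured points the guidance genes by family: Epha4 to Epha8, Slit1 and Unc5a lie to the left, Ephb4, Plxnb2 and Plxnd1 to the right, and Epha8 and Epha4 at the top.

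Eph receptors had another leading gene in each rat. EphA receptors are bound mainly by A ephrins. Of the 8 with a mean of 1 or more, rat 35 had the minimum for 7 and rat 70 the maximum for 5. For the 5 EphB receptors, each of these counts was 3. The all-gene shares were 36.5% for a minimum in rat 35 and 29.8% for a maximum in rat 70. Summed FPKM of the EphA receptors was 36.5, 12.3 and 122, while that of the EphB receptors was 35.2, 29.3 and 30.8. EphA therefore stood to EphB as 1.04, 0.418 and 3.96. The leading receptor was Ephb1 in rat 19 with 22.7% of the summed Eph receptor FPKM, Ephb4 in rat 35 with 43.2%, and Epha4 in rat 70 with 39.1%.

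Epha4, a receptor for ephrins of both types that limits axon growth after injury (ENSRNOG00000013213, chromosome 9, 83111222 to 83253458 on build Rnor 6.0), was at 9.27, 3.21 and 59.7 FPKM. Rat 70 held 6.44 times the level of rat 19, and rat 35 was the lowest. Epha8 (chromosome 5, 155295314 to 155316495) had the widest range of the members that were above 0 in every rat, a fold of 42.4, with 0.634, 0.290 and 12.3 FPKM. Its neighbour Ephb2, 90.9 kb away on chromosome 5, was at 1.51, 1.56 and 3.18 and was also highest in rat 70, with rats 19 and 35 nearly level. Epha6 was at 2.31, 0.267 and 9.54, Epha7 at 7.93, 2.68 and 20.8 and Epha5 at 10.7, 1.13 and 14.6, all receptors for A ephrins with the order 35, 19, 70 from low to high.

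The remaining EphA genes were low and did not share that order. Epha3 was at 1.96, 0.315 and 1.64, which corresponds to 94, 16 and 81 fragments, and the kinase-deficient Epha10 at 1.95, 0.521 and 1.70; both were highest in rat 19. Epha2, a receptor of epithelia and endothelium, was highest in rat 35 at 1.59, 3.52 and 1.50, with rats 19 and 70 nearly level. Epha1 stayed under 1 FPKM (0.198, 0.318 and 0.134) on 10, 17 and 7 fragments. The EphA genes that were highest in rat 70 were thus Epha4, Epha5, Epha6, Epha7 and Epha8.

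Among EphB receptors, Ephb4, the receptor of venous endothelium, was at 6.10, 17.9 and 2.90, highest in rat 35 and 2.94 times the level of rat 19. Ephb1 was at 16.3, 6.04 and 10.5 and the kinase-deficient Ephb6 at 8.93, 2.27 and 11.4, both lowest in rat 35. Ephb4 stood to Ephb1 as 0.375, 2.97 and 0.277, so that only rat 35 had more of the former. Ephb3 was at 2.40, 1.49 and 2.92, within a 1.97-fold range. On the log2(FPKM + 1) scale, Epha4, Epha6, Epha7 and Epha8 were more than 2-fold higher in rat 70 than in rat 19, and no EphB gene was that far apart. In FPKM itself, Ephb2 was 2.11-fold higher in rat 70 and Ephb4 2.11-fold higher in rat 19.

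Among the ephrins, the ligands, the A and B types differed. The A ephrins summed to 31.0, 25.5 and 32.8 FPKM and the B ephrins to 58.1, 35.0 and 20.7, so that A stood to B as 0.533, 0.728 and 1.58. Efnb3, expressed in neurons and oligodendrocytes as a block to axon regrowth, was the leading ephrin of rat 19 at 35.8, 9.49 and 12.3, 2.91 times the level of rat 70. Efnb2, the arterial partner of Ephb4, was at 13.5, 9.62 and 4.18 and was highest in rat 19, unlike Ephb4, with rat 70 the lowest in both. Efnb1 was at 8.72, 15.9 and 4.20, highest in rat 35. All 3 B ephrins were higher in rat 19 than in rat 70.

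The A ephrin genes Efna1, Efna3 and Efna4 lie close together on chromosome 2 and differed in order. Efna1 (188588796 to 188596222) was at 8.83, 18.2 and 9.37 FPKM, Efna3 (188637852 to 188645196) at 15.1, 1.50 and 16.0 and Efna4 (188655912 to 188660179) at 0.833, 2.09 and 0.555. Efna1 and Efna4 were highest in rat 35, while Efna3, between them with gaps of 41.6 and 10.7 kb, was 10.1-fold lower there than in rat 19. Rats 19 and 70 were within 1.06-fold of each other for Efna3 and 1.06-fold for Efna1. Efna1 thus stood to Efna3 as 0.585, 12.1 and 0.586, and Efna1 led the ephrins in rat 35 with 30.0% of their sum. Efna2 was at 4.86, 3.20 and 5.13 and Efna5, a ligand of retinal and cortical mapping, at 1.35, 0.547 and 1.78 on 14, 6 and 19 fragments, with both lowest in rat 35.

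**Figure D2:**
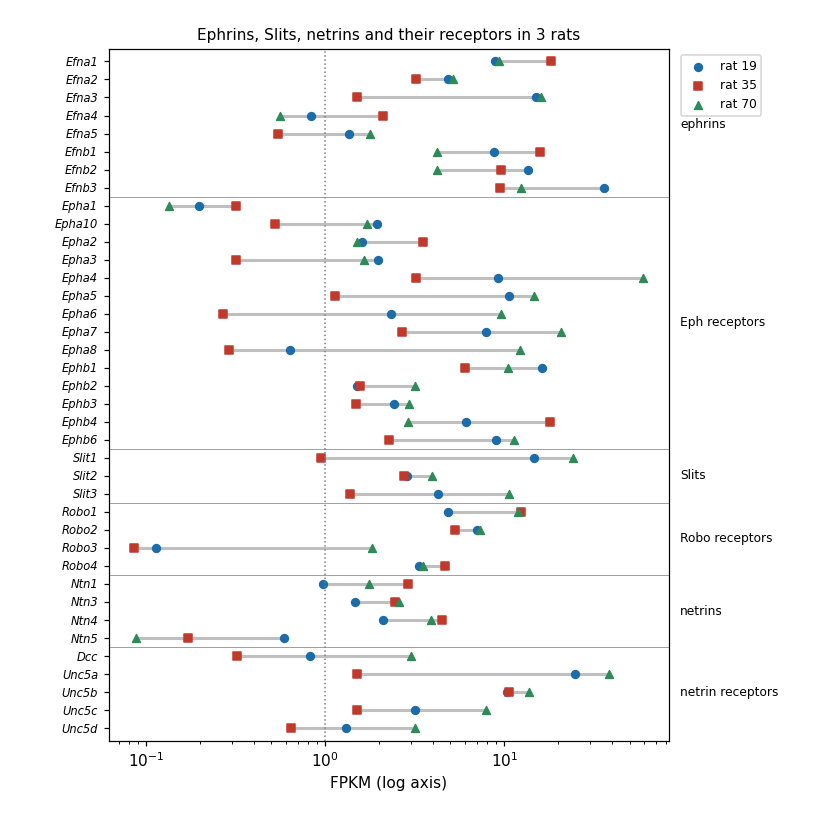
FPKM of each ephrin, Eph receptor, Slit, Robo, netrin and netrin receptor gene (rows) on a log axis, with 1 point per rat and a grey bar from the lowest to the highest rat; the dotted line is 1 FPKM. Red squares (rat 35) lie far to the left for Efna3, Epha5, Slit1 and Unc5a and to the right for Ephb4 and Efnb1, while the 3 points of Robo4, Slit2 and Unc5b lie close together.

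Slits were lowest in rat 35 for all 3 genes, against 36.5% of all genes. Of the 3 Robo genes with a mean of 1 or more, only Robo2 was. Robo3, below that mean, was lowest there too, on few fragments. Slit1, the Slit of forebrain neurons (chromosome 1, 260843483 to 260992366), was at 14.6, 0.941 and 24.3 FPKM, a range of 25.8-fold. Slit3 was at 4.28, 1.37 and 10.6, with rat 70 highest, and Slit2 at 2.88, 2.74 and 3.96, a range of only 1.44-fold. Summed Slit FPKM was 21.8, 5.06 and 38.8, and summed Robo FPKM 15.3, 22.5 and 24.6. Slits stood to Robos as 1.43, 0.225 and 1.58.

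Robo1 and Robo2 are the main Slit receptors of the brain. Robo1 was at 4.85, 12.4 and 11.9, lowest in rat 19 with the other two nearly level, and Robo2 at 6.99, 5.28 and 7.34. Robo4, the endothelial member, was at 3.31, 4.65 and 3.52, a range of 1.40-fold, and was highest in rat 35, as were all 6 endothelial markers. Robo3, known from axons that cross the midline, lies 1.8 kb from Robo4 on chromosome 8 and was at 0.113, 0.0855 and 1.82 on 5, 4 and 83 fragments, so that its values in rats 19 and 35 rest on few fragments.

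All 5 netrin receptors were highest in rat 70, and 4 of 5 were lowest in rat 35, where all genes had 29.8% and 36.5%. Unc5a, a receptor gene of neurons (chromosome 17, 10153994 to 10208360), was at 24.9, 1.51 and 38.3 FPKM, a range of 25.4-fold. Unc5c was at 3.15, 1.51 and 7.89, Unc5d at 1.31, 0.643 and 3.18 and Dcc, the attractive receptor, at 0.822, 0.321 and 2.99. Unc5b, which is also a receptor of endothelium, was at 10.3, 10.6 and 13.7, within 1.33-fold. Unc5b therefore made up 72.7% of the netrin receptor sum in rat 35, against 25.5% and 20.8% in rats 19 and 70, where Unc5a led.

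Netrin genes were lowest in rat 19 for all 3 with a mean of 1 or more, and none was more than 2-fold apart on the log2(FPKM + 1) scale. Over all genes these shares were 19.3% and 42.5%. Ntn1, the main ligand of Dcc, was at 0.970, 2.88 and 1.75, Ntn3 at 1.46, 2.45 and 2.59 and Ntn4, a netrin of basement membranes, at 2.10, 4.47 and 3.91. After rescaling to a common sum, 1 of the 3 was more than 2-fold apart. Ntn5 was listed at 0.587, 0.171 and 0.0876 on 13, 4 and 2 fragments. The netrin sum stood to the receptor sum as 0.126, 0.683 and 0.126. Outside these families the symbol rule took Unc50, a Golgi protein gene unrelated to Unc5, which was level at 24.5, 23.6 and 22.6, and Unc5cl, a death-domain protein gene with 1 fragment in rat 19 and 0 in the others.

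Plexins are the semaphorin receptors. Of the 9 genes, 7 were more than 2-fold apart, 5 were lowest in rat 35 and 3 in rat 70, where all genes had 42.5%, 36.5% and 44.2%. Plxnb3, a receptor for Sema5a known from the oligodendrocyte lineage (chromosome X, 157015305 to 157028434), was at 82.3, 18.8 and 25.3 FPKM, 3.26 times higher in rat 19 than in rat 70. It was 42.9% of the plexin sum in rat 19. The 7 oligodendrocyte markers were highest in rat 70 for 5, in rat 35 for 1 and in rat 19 for 1, Cnp, at 509, 303 and 325. The part of that lineage in the Plxnb3 values was not tested. Plxnb2, a receptor for class 4 semaphorins expressed in many cell types including phagocytes (chromosome 7, 130135464 to 130151880), was at 32.1, 86.3 and 24.2 and led in rat 35 with 45.6% of the sum. Plxnb2 thus stood to Plxnb3 as 0.390, 4.58 and 0.958.

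Plxnd1, the endothelial receptor for Sema3e, was at 15.4, 29.3 and 4.64, a 6.30-fold range, and Plxnc1, the receptor for Sema7a, at 6.73, 12.8 and 4.71. Both were highest in rat 35 and lowest in rat 70, as was Plxnb2, and the summed endothelial, mural, microglia and fibroblast lists all had that order too. Among single markers, 2 of 5 fibroblast and 1 of 6 endothelial genes with a mean of 1 or more were lowest in rat 19. The part of these cells in the plexin values was not tested. Plxnb1, the receptor for Sema4d, was lowest in rat 35 and highest in rat 70, at 16.1, 9.07 and 21.2. The A plexins are the signalling partners of neuropilins. Plxna3 was at 16.0, 5.88 and 6.91, highest in rat 19, and Plxna4a, listed under this older symbol of Plxna4, at 1.37, 0.738 and 5.90, highest in rat 70. Plxna1 was at 12.03, 18.6 and 21.0 and Plxna2 at 9.74, 7.75 and 13.1, both within 2-fold. Plxna3 and Plxnb3 lie 636.1 kb apart on chromosome X, and both had their highest value in rat 19.

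**Figure D3:**
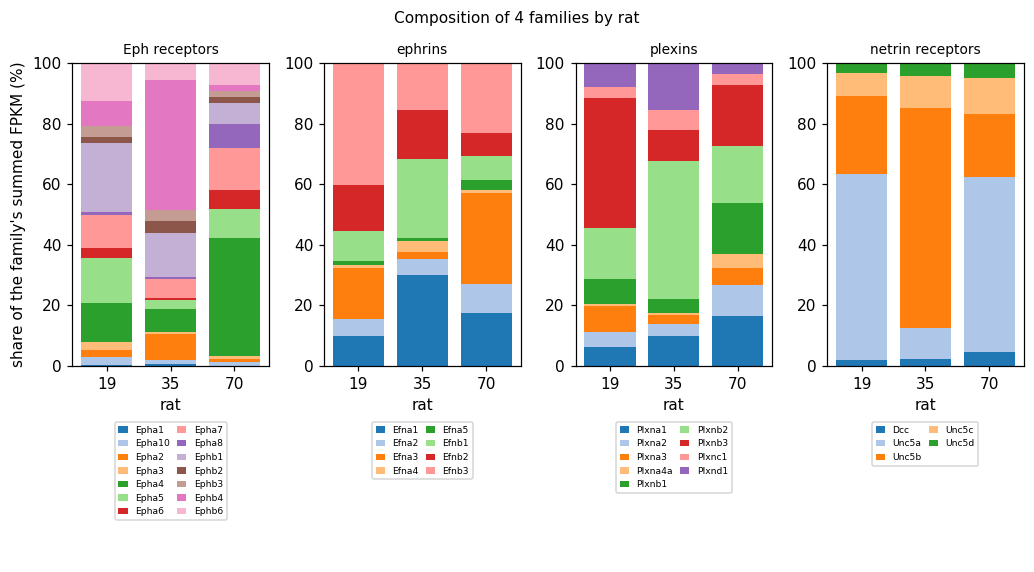
Stacked bars give each gene's share (%) of its family's summed FPKM in rats 19, 35 and 70, for the Eph receptors, ephrins, plexins and netrin receptors. The largest Eph receptor share was that of Ephb1 in rat 19 (22.7%), Ephb4 in rat 35 (43.2%) and Epha4 in rat 70 (39.1%), and Unc5b took 72.7% of the netrin receptors in rat 35.

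Neuropilins were lowest in rat 19 for both genes, against 19.3% of all genes. Nrp1, the receptor for Sema3a and a coreceptor for VEGF, was at 10.1, 25.6 and 14.8, and Nrp2, the receptor for Sema3f, at 6.50, 11.9 and 11.7. Rat 35 was 2.54-fold above rat 19 for Nrp1. Nrp2 was nearly level in rats 35 and 70, and the higher of these was rat 70 after either rescaling.

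Of the 20 semaphorin genes, 12 were more than 2-fold apart, against 42.5% of all genes. Rat 70 was the lowest for 13, or 11 after either rescaling, and rat 35 for 5, or 6 after either rescaling. All genes were also more often lowest in rat 70 (44.2%) than in rat 35 (36.5%). Summed FPKM was 251, 209 and 255. Sema7a, a lipid-anchored semaphorin that promotes axon growth through integrins (chromosome 8, 62723788 to 62745868), was the leading semaphorin in each rat at 33.2, 41.1 and 92.5, with rat 70 2.25-fold above rat 35. It made up 13.2%, 19.7% and 36.3% of the semaphorin sum.

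Secreted class 3 semaphorins, which repel axons and are known from scar fibroblasts, were lowest in rat 70 for 6 of 7 genes, or 5 after either rescaling, where Sema3c had another order. Over all genes as deposited, 44.2% were lowest in rat 70. Sema3c was level at 14.5, 14.8 and 14.3 FPKM (14.5 ± 0.260, SD, n = 3), the narrowest range of the 67 members as deposited. Sema3a, the classical growth cone collapsing factor, was at 3.51, 2.82 and 0.607, lower in rat 70 by 4.64-fold against rat 35. Sema3b was at 6.76, 3.87 and 2.13 and its neighbour Sema3f, 76.4 kb away on chromosome 8, at 1.84, 2.18 and 0.663, both with rat 70 the lowest. Sema3g, a semaphorin of vessels, was at 7.55, 15.8 and 5.98, highest in rat 35, and Sema3d at 5.76, 5.54 and 4.50. The exception was Sema3e, the ligand of Plxnd1, at 2.34, 0.852 and 5.04, which was highest in rat 70 where Plxnd1 was lowest. The class 3 gene with the largest ratio of rat 35 to rat 19 was Sema3g, at 2.09-fold. Fibroblast and meningeal marker sums were 237 in rat 19 and 2651 in rat 35, and the part of these cells in the class 3 values was not tested.

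Membrane semaphorins are given by class. In class 4, Sema4a, a semaphorin of immune cells, was at 20.9, 27.9 and 9.16 and Sema4d, expressed by oligodendrocytes and immune cells, at 21.1, 13.0 and 8.52; both were lowest in rat 70. Sema4f was at 15.3, 3.32 and 9.67 and Sema4g at 7.98, 1.99 and 11.4, both lowest in rat 35. Sema4b was at 4.10, 5.14 and 5.15 and Sema4c at 8.43, 8.85 and 5.71, within 2-fold. In class 5, Sema5a, the ligand of Plxnb3, was at 14.5, 3.86 and 16.2, lowest in rat 35, and Sema5b at 18.3, 11.9 and 7.59, lowest in rat 70. In class 6, whose members bind A plexins, Sema6b was at 21.4, 8.09 and 22.9, lowest in rat 35, whereas Sema6a (22.0, 20.3 and 16.2), Sema6d (18.0, 13.4 and 13.3) and Sema6c (3.68, 3.96 and 3.24) stayed within 2-fold.

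**Figure D4:**
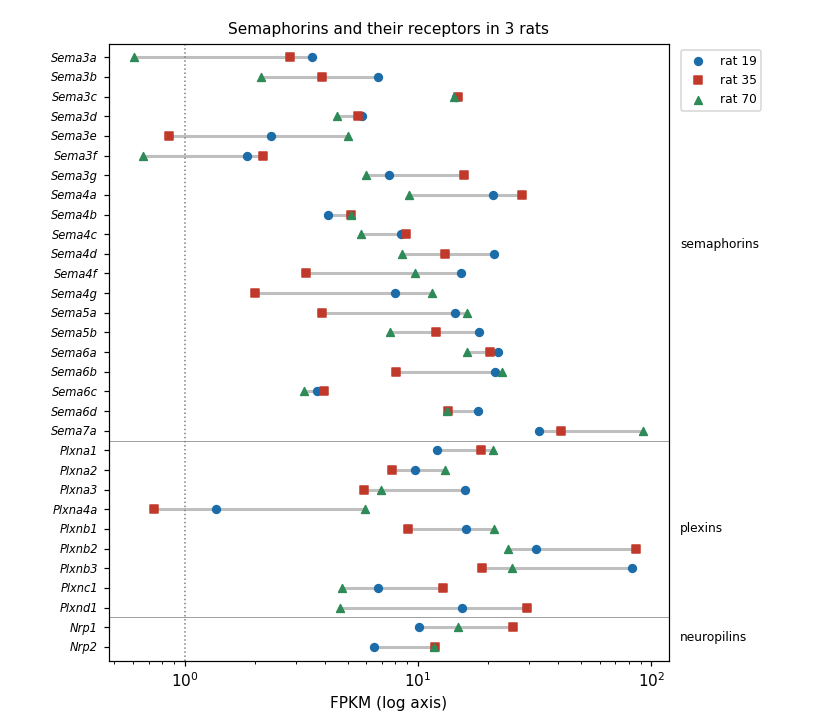
FPKM of each semaphorin, plexin and neuropilin gene (rows) on a log axis, with 1 point per rat and a grey bar from the lowest to the highest rat; the dotted line is 1 FPKM. Sema3c, Sema6c and Sema4b have nearly coincident points, rat 35 is far to the right for Plxnb2, and rat 19 is far to the right for Plxnb3.

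Rats 19 and 70, whose pan-neuronal sums were 1385 and 2045 FPKM, also differed. On the log2(FPKM + 1) scale, 10 of the 67 members (14.9%) were more than 2-fold higher in rat 70, against 4.84% of all genes, and 10 (14.9%) more than 2-fold lower, against 6.11%. Those higher in rat 70 were Epha4, Epha6, Epha7, Epha8, Dcc, Unc5c, Slit3, Plxna4a, Sema7a and Robo1, of which 8 are receptors and Sema7a and Slit3 are ligands. Those lower in rat 70 were Efnb2, Efnb3, Plxna3, Plxnb3, Plxnd1, Sema3a, Sema3b, Sema4a, Sema4d and Sema5b. Of these, Plxna3, Plxnb3 and Plxnd1 are receptors and the others are ligands. Several of the receptors higher in rat 70 are EphA genes, of 1 family. Whether either split departs from that of the 67 members was not tested.

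Markers of brain regions also separated these rats. Of 9 thalamic markers, 8 were highest in rat 70, with sums of 106, 164 and 329, among them Slc17a6, the glutamate transporter of thalamic neurons, at 1.73, 0.0147 and 28.7. Hippocampal markers summed to 61.8, 15.6 and 74.1 over 9 genes, of which 3 had a mean of 1 or more and Fibcd1 was listed at 0 in all rats. These 3 did not share an order between rats 19 and 70: C1ql2 was at 2.17, 0.178 and 28.7 and Prox1 at 2.33, 1.80 and 10.2, whereas Wfs1, the largest part of the sum in rat 19, was at 56.4, 11.5 and 34.5. The 6 choroid plexus markers summed to 38.4, 4.02 and 370. Ttr, at 33.1, 0.173 and 362, made up most of the sum in rats 19 and 70 but not in rat 35, and Folr1 was at 1.57, 2.09 and 2.03. Of the 5 choroid plexus markers with a mean of 1 or more, 3 were highest in rat 70, 1 in rat 35 and 1 in rat 19. Striatal markers were highest in rat 19 for 5 of 7, with sums of 115, 26.5 and 59.1. Of the cortical excitatory markers, Tbr1 was at 14.0, 0.0297 and 3.51, higher in rat 19 than in rat 70, while Camk2a was at 129, 13.4 and 459. These region lists were chosen after the values were seen, and the part of tissue composition in the EphA, Dcc and Sema7a values of rat 70 was not tested.

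Signalling genes inside the cell and other guidance genes were described as the members were. Of 57 further guidance genes in the files, 56 had a mean of 1 or more, 30 of these (53.6%) were more than 2-fold apart, and 34 (60.7%) were lowest in rat 35, against the 42.5% and 36.5% of all genes given above. Among adaptors and GTPase regulators, 12 of 20 were more than 2-fold apart and 11 were lowest in rat 35. Chn1, which encodes the chimaerin that acts below Epha4, was at 127, 12.5 and 226 FPKM, and Srgap3, a Slit-Robo GTPase-activating protein gene, at 17.3, 4.40 and 34.0.

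Of 13 GTPases and kinases, 6 were more than 2-fold apart and 7 lowest in rat 35. Over all genes these shares were 42.5% and 36.5%, which also stand beside the lists that follow. Rhoa, the GTPase of growth cone collapse, was highest in rat 35 at 259, 422 and 190. The kinase genes Pak1 (48.5, 14.9 and 82.5) and Pak3 (4.90, 1.05 and 8.50) were lowest there. Of 12 cytoskeletal effectors, 6 were more than 2-fold apart and 9 lowest in rat 35. Crmp1, a mediator of Sema3a signalling, was at 50.4, 5.98 and 67.3 and its relative Dpysl4 at 54.5, 5.46 and 14.5, while Cfl1, the actin-severing cofilin, was at 1055, 1201 and 791. Of 11 other guidance ligands and adhesion receptors, 6 were more than 2-fold apart and 7 lowest in rat 35, with L1cam at 24.1, 1.35 and 28.0 and Nrcam, the neuropilin-binding adhesion molecule, at 45.2, 7.27 and 51.7.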

How the data were processed

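Motor cortex mRNA of 3 rats, 1 group, was analysed. The deposited values are FPKM, which the authors calculated by script from normalized fragment numbers, per the labels' design text; the sources used here do not state the normalization. The submitters' processing notes name HISAT2 2.0.4, StringTie 1.3.0 and Rnor 6.0, with no roles. Symbols and positions are those of the files, and for a repeated symbol the row with the highest mean was kept.

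Genes were compared on log2(FPKM + 1), a scale that compresses differences between low values, from a mean FPKM of 1 upward. More than 2-fold apart means a difference above 1 on that scale; ratios in the text are of FPKM itself. With 1 group there is no test, and whether the spread between rats is biological or technical cannot be told apart. Depth was read from the 300 lowest values of each rat: 70.7%, 79.0% and 76.3% gave a whole gene length within 0.02 bases at the depth stated, against 4.0% at other depths. Fragments of low members come from the shortest length that gave whole numbers within 0.01 in every rat, so they are approximate. Exact zeros can be failed estimates, and near-identical or overlapping genes could share fragments.

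The members, the pathway and cell type lists and the rule for naming genes (every member, and in each pathway list the highest mean and the largest SDs) were chosen with earlier results of these data known. The region lists, the promoters shown and 9 single markers named with them were chosen after the values were seen; the values of 1 other marker are not reported here. Promoters were matched by symbol to RefSeq, build GRCr8. Counting was tested on simulated data. Other settings were a pseudocount of 0.1, minima of 0.5, 5 or no FPKM, a common sum of 1000000, median-of-ratios scaling and leaving out each rat. Python 3.11.15, numpy 2.4.6 and pandas 2.3.3 were used.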

Additional observations from a re-analysis of the deposited data

How the results depend on the processing

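No paired analysis was possible because the 3 rats form 1 group. Rescaling to a common sum raised the median gene by 0.84 (log2) and median-of-ratios scaling moved it by -0.04. The count of members more than 2-fold apart was 40 of 67 (59.7%), against 42.5% of all genes. After rescaling to a common sum it was 48 of 68 (70.6%), against 45.5% of all genes. With a pseudocount of 0.1 it was 49 of 67 (73.1%), against 49.3%. Leaving out 1 rat gave 20 without rat 35, 22 without rat 70 and 31 without rat 19. All genes then had 11.0%, 26.1% and 37.0%. With the minimum raised to 5 FPKM, which 42 members reached, 30 (71.4%) were more than 2-fold apart, against 40.9% of all genes. Of the 42, 19 were lowest and 13 highest in rat 35, for which no all-gene share is given at this minimum. The median deviation of rat 70 was 0.007 there in place of 0.20. Fewer members enter there, so these counts are not on the base of 67. The deviation of rat 19, 0.04, had the opposite sign after rescaling to a common sum (-0.02) and ranged from -0.039 to 0.174 when another rat was left out. That of rat 35 ranged from -0.174 to -0.172 and that of rat 70 from 0.039 to 0.172 when another rat was left out. The SD (log2) of single members moved by more than its own size for 1 of 67 in each of rescaling, median-of-ratios scaling and the lower pseudocount. Depth limits the values of low members most, such as Robo3 in rats 19 and 35 (5 and 4 fragments), Ntn5 in rats 35 and 70 (4 and 2) and Unc5cl (1, 0 and 0).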
